A study of Mus musculus with 6 samples.

Results

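The genes that encode the NF-kB transcription factors and the proteins that hold them in check were examined in mouse bone-marrow-derived macrophages (BMDM), phagocytes grown in culture from marrow precursors. The group was set by name and held 10 genes among the 55401 of the deposited table, namely the subunits Nfkb1, Nfkb2, Rel, Rela and Relb, the inhibitors Nfkbia, Nfkbib and Nfkbie, the nuclear inhibitor-like gene Nfkbiz, and Tnfaip3, which encodes the deubiquitinase A20. Both groups of 3 samples were BMDM kept for 7 days in medium with L929 supernatant and then exposed to 5 µM L-OHP (oxaliplatin, a platinum chemotherapy drug) for 12 h. The L-OHP+FUC samples had received fucoidan (a sulfated polysaccharide from brown seaweed, 250 µg/ml) for 12 h beforehand, and the L-OHP samples had not. All 6 samples had thus seen the drug, and neither untreated BMDM nor BMDM with fucoidan alone were analysed here. The sources used here give no strain, age or sex of the mice and do not say whether replicates were separate animals or cultures, so the spread behind each p-value may be a technical one.

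NF-kB factors are dimers of 5 related subunits that share a DNA-binding domain. In resting cells inhibitor proteins, the IkBs, keep the dimers in the cytoplasm, and signals from Toll-like, interleukin-1 and TNF receptors activate a kinase complex that marks the IkBs for destruction. Many of the genes that freed dimers switch on encode the pathway's own parts, among them Nfkb2, Relb, Nfkbia and Tnfaip3, so that in macrophages the mRNA of these genes is commonly read beside that of the cytokines the pathway induces.

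The labelled cell type was checked first. All 12 macrophage markers reached 1 FPKM (fragments counted per kilobase of transcript and scaled to library depth, a level per length). Their summed level was 14201 to 19622 FPKM in the L-OHP libraries and 15134 to 15847 FPKM in the L-OHP+FUC libraries, most of it Lyz2. Single markers went both ways without overlap. Mertk was at 48.7 to 53.7 FPKM with L-OHP and 29.2 to 30.7 FPKM with L-OHP+FUC, and Csf1r at 401 to 448 and 545 to 627 FPKM. By the test described below, 1 of the 12 was called higher and 2 lower, against 7.67% and 19.3% of tested genes. Of 11 neutrophil markers 3 reached 1 FPKM, and Ly6g, Cxcr2 and Retnlg were listed at 0 in all 6 libraries. The sums over these 11 were 62.0 to 65.5 and 57.4 to 65.0 FPKM, nearly all of it Csf3r. The T cell receptor genes Cd3d, Cd3e and Cd3g were listed at 0 as well, with sums of 4.11 to 6.01 and 2.63 to 3.02 FPKM over 9 T cell markers, nearly all of it Cd4. Other lists differed between the groups without overlap. The summed level of 6 osteoclast markers was 52.7 to 56.9 FPKM with L-OHP and 70.4 to 85.5 FPKM with L-OHP+FUC, with Acp5 at 20.9 to 26.4 and 43.4 to 52.9 FPKM. That of 7 dendritic cell markers was 351 to 792 and 235 to 270.1 FPKM, nearly all of it Bst2, with Flt3 listed at 0 in all 6 libraries. That of 6 endothelial markers was 6.83 to 7.70 and 6.32 to 6.73 FPKM, and that of 6 erythroid markers 0.288 to 0.499 and 0.668 to 1.10 FPKM. The part of these shifts in the results was not tested. B cell, NK cell, mast cell and fibroblast sums overlapped between the groups, at no more than 11.8 FPKM. Steps between low FPKM values implied library depths of 15.75 to 18.75 M fragments. The libraries also differed in base composition. Across tested genes, which are not independent replicates, Spearman's rho between a library's deviation from the gene mean and GC content was -0.42 to -0.05 in the L-OHP libraries and 0.01 to 0.46 in the L-OHP+FUC libraries. The 10 genes had a median GC content of 54.2% against 49.5% over all tested genes. Values corrected for GC content and transcript length are therefore also given for each of the 10 genes.

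With fucoidan before the drug, Nfkb2, Nfkbiz and Rela mRNA was higher. These 3 of the 10 genes passed limma's test on log2(FPKM + 1) at an adjusted p of 0.05, all 3 as higher, where 7.67% of the 12084 tested genes were called higher. None was called lower, against 19.3% of tested genes. All 10 passed the filter on low values, their log2 fold changes lay between 0.02 and 0.76, and their median was 0.47, against -0.10 over all tested genes. In 6 of the 10, every L-OHP+FUC library lay above every L-OHP library, where 16.1% of tested genes showed such a gap, and the same 6 had an unadjusted p under 0.05, against 13.3% of tested genes as higher. In the authors' deposited table, q was under 0.05 for 8 of the 10 as higher, all except Rel and Tnfaip3, against 9.93% of tested genes, and the mark for significance there was no for each of the 10. The count of 3 became 6 after median ratio rescaling (13.1% of tested genes called higher), 5 after quantile normalization (13.0%), 4 once GC content and transcript length were corrected for (11.5%) and 0 without a filter on low genes (2.26%), where 6 had an unadjusted limma p under 0.05, against 7.3% of genes. It was 3 with the replicate number as a block (4.58%) and 0 with that block and the GC and length correction (5.43%), where 7 had an unadjusted limma p under 0.05, against 17.8% of genes. In bulk RNA, a change in the share of cells that express a gene and a change in RNA per cell cannot be told apart.

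**Figure D1:**
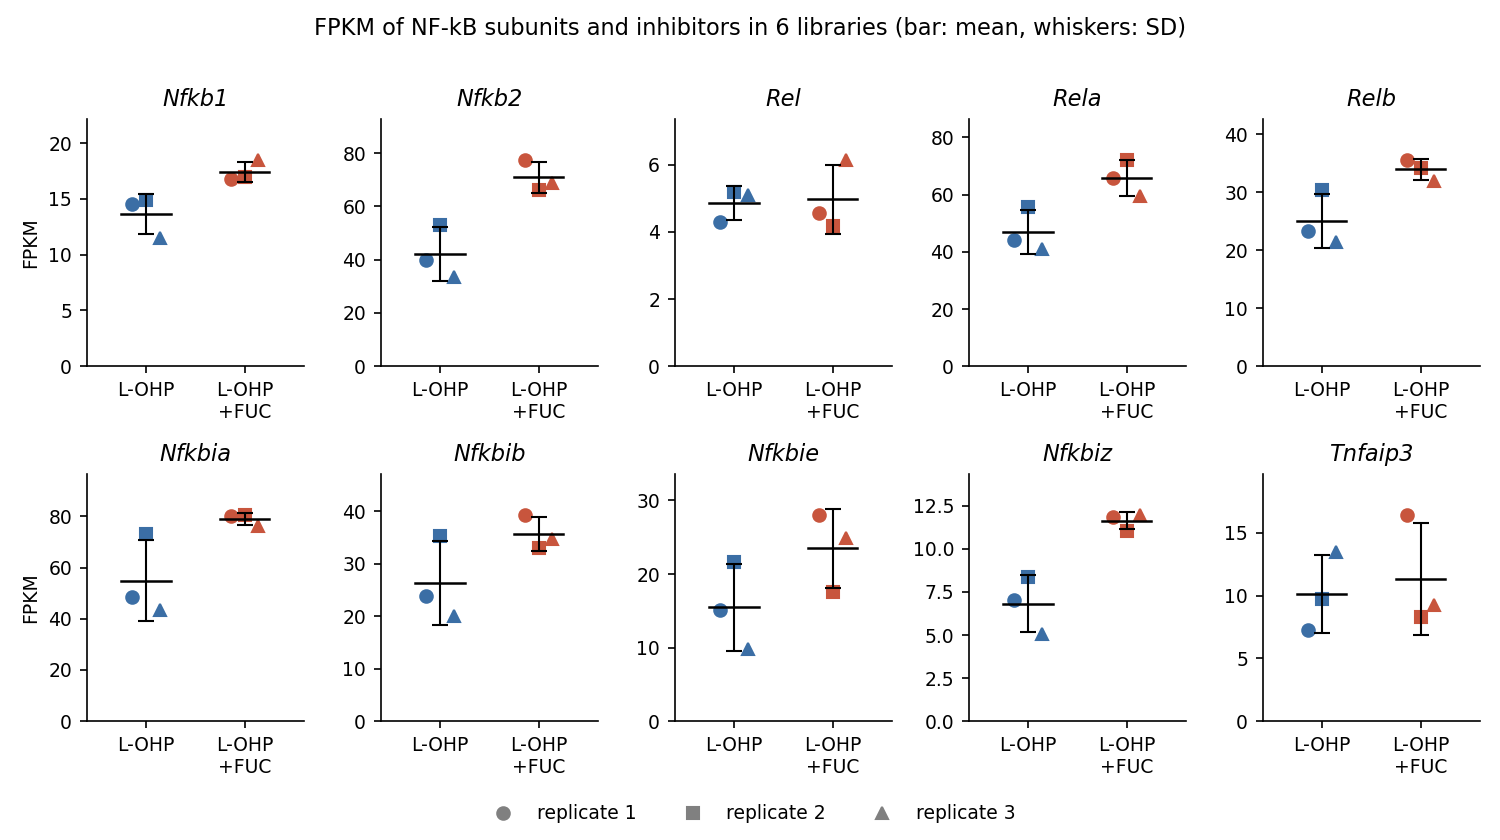
FPKM (vertical axes, each starting at 0) of the 10 genes in the 3 L-OHP libraries (blue) and the 3 L-OHP+FUC libraries (red), with the replicate number as the symbol, the mean as a bar and the SD as whiskers. In Nfkb1, Nfkb2, Rela, Relb, Nfkbia and Nfkbiz the groups did not overlap, and L-OHP replicate 2 (square) was the highest of its group in 9 of the 10 genes.

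L-OHP replicate 2 stood apart from the other L-OHP libraries for these genes. The mean deviation of the 10 genes from their own means, in log2 units, was -0.31 in L-OHP replicate 1, 0.05 in replicate 2 and -0.42 in replicate 3. In the L-OHP+FUC replicates 1 to 3 it was 0.33, 0.12 and 0.22, so the second L-OHP library lay nearer to the fucoidan group than to its own. Without it, 7 of the 10 genes passed as higher, the 3 above with Relb, Nfkbia, Nfkbib and Nfkbie, against 9.28% of tested genes. Leaving out L-OHP replicate 1, L-OHP+FUC replicate 1 or L-OHP+FUC replicate 2 left none of the 10 past the threshold, where 3.09%, 2.54% and 2.2% of tested genes were called higher. At an unadjusted limma p under 0.05 there were 4, 5 and 6 of the 10 in these settings, against 10.5%, 9.81% and 9.61% of tested genes as higher. Without L-OHP+FUC replicate 3 only Nfkb2 passed (5.21%), and without L-OHP replicate 3 Nfkb2 and Nfkbiz did (5.09%). L-OHP replicate 2 also had the smallest share of mitochondrial transcripts, 5.99% against 7.50% to 9.44% in the other 5 libraries. Its rho with GC content was -0.05, against -0.34 and -0.42 in L-OHP replicates 1 and 3. In L-OHP+FUC replicates 1 to 3 rho was 0.46, 0.32 and 0.01. The part of these differences in the result was not tested.

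**Figure D2:**
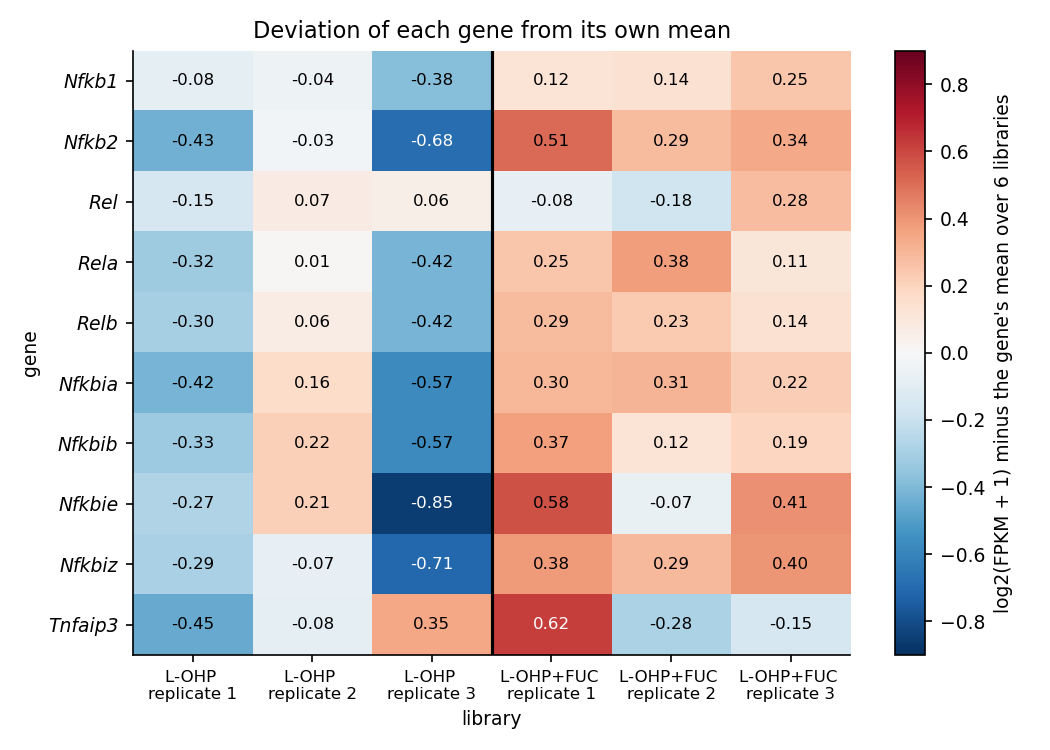
Deviation of log2(FPKM + 1) from each gene's mean over the 6 libraries (color and printed value; genes in rows, libraries in columns, a black line between the groups). L-OHP replicates 1 and 3 are mostly blue, L-OHP replicate 2 is near 0 or pale red, and Rel and Tnfaip3 do not follow the pattern of the other 8 genes.

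Among the subunits, Nfkb2 and Rela rose, while Relb, Nfkb1 and Rel did not pass. The differences between subunits were not tested. After the GC and length correction Nfkb2, Nfkb1 and Rel passed, and Rela and Relb did not. Nfkb2 encodes p100, which restrains partner subunits and is processed to the DNA-binding form p52 in the noncanonical pathway, and lies on chromosome 19 of mm10 (46304320 to 46312385, plus strand). It was measured at 39.95, 53.1 and 33.4 FPKM in L-OHP replicates 1 to 3 and at 77.4, 66.3 and 68.9 FPKM in the L-OHP+FUC replicates. Every library with fucoidan was above every library without it, and the level went from 42.2 ± 10.1 to 70.9 ± 5.81 FPKM (SD, n = 3; limma log2 fold change 0.76, SE 0.17, adjusted p = 0.0211). The call of Nfkb2 was lost without L-OHP replicate 1 (adjusted p = 0.0685), L-OHP+FUC replicate 1 (0.0776) or L-OHP+FUC replicate 2 (0.0620), and without a filter on low genes (0.0553).

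Rela encodes p65, the subunit with a transactivation domain that pairs with p50 in the classical dimer, and lies on the same chromosome (5637483 to 5648130, plus strand). Its FPKM were 43.97, 55.5 and 41.1 in the L-OHP libraries and 65.8, 72.1 and 59.5 in the L-OHP+FUC libraries. The groups of Rela did not overlap, and its mean went from 46.9 ± 7.64 to 65.8 ± 6.30 FPKM (SD, n = 3; limma log2 fold change 0.49, SE 0.14, adjusted p = 0.0397). After the correction for GC content and length the log2 fold change of Rela was 0.31 (SE 0.10, adjusted p = 0.0678), without a call. Leaving out any single library except L-OHP replicate 2 also ended the call of Rela (limma adjusted p = 0.0513 to 0.132), as did leaving out the filter (0.0832).

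Relb, the partner of p52 in the noncanonical pathway (chromosome 7, 19606217 to 19629438, minus strand), stood at 23.4, 30.3 and 21.4 FPKM with L-OHP and at 35.6, 34.2 and 31.95 FPKM with L-OHP+FUC. Its groups did not overlap, by a margin of 30.3 to 31.95 FPKM, and it missed the threshold (limma log2 fold change 0.44, SE 0.14, adjusted p = 0.0537), as it did after the GC and length correction (0.30, adjusted p = 0.0890). Nfkb1, the source of p105 and its processed form p50 (chromosome 3, 135584655 to 135691547, minus strand), stood at 14.5, 14.9 and 11.5 FPKM and at 16.8, 17.0 and 18.5 FPKM. The groups of Nfkb1 did not overlap either (limma log2 fold change 0.34, SE 0.11, adjusted p = 0.0679), and it passed after the GC and length correction (0.51, adjusted p = 0.0269). Rel, which encodes c-Rel (chromosome 11, 23736847 to 23770970, minus strand), was the lowest of the 10 genes, at 4.29, 5.19 and 5.11 FPKM with L-OHP and 4.57, 4.19 and 6.14 FPKM with L-OHP+FUC. Its groups overlapped fully, and the log2 fold change was 0.02 (SE 0.14, limma adjusted p = 0.945). After the GC and length correction the value for Rel was 0.41 (SE 0.10, adjusted p = 0.0357). Rel had the lowest GC content of the 10 genes, 42.5%, and Nfkb2 and Rela the highest, 59.4% each.

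The 3 classical inhibitors had higher means with fucoidan and none passed, with 1 of them, Nfkbia, at an unadjusted p under 0.05 by limma, while the authors' deposited table gave q of 0.0114 for Nfkbia, 0.0434 for Nfkbib and 0.0337 for Nfkbie. Nfkbia encodes IkB-alpha, the inhibitor that is degraded and resynthesized fastest on activation (chromosome 12, 55489410 to 55492647, minus strand). It stood at 48.3, 72.96 and 43.5 FPKM with L-OHP and at 80.1, 80.6 and 76.1 FPKM with L-OHP+FUC. The fucoidan libraries of Nfkbia lay close together and just above L-OHP replicate 2 (limma log2 fold change 0.55, SE 0.19, adjusted p = 0.0692), and without that library the log2 fold change was 0.77 (limma adjusted p = 0.00824). Nfkbib, which encodes IkB-beta (chromosome 7, 28758251 to 28767512, minus strand), stood at 23.8, 35.2 and 19.97 FPKM and at 39.3, 33.0 and 34.6 FPKM, with overlapping groups (log2 fold change 0.46, SE 0.20, limma adjusted p = 0.131). Nfkbie, which encodes IkB-epsilon (chromosome 17, 45555703 to 45563169, plus strand), stood at 15.1, 21.6 and 9.80 FPKM and at 28.05, 17.6 and 24.9 FPKM. Its groups overlapped, since L-OHP+FUC replicate 2 lay under L-OHP replicate 2 (log2 fold change 0.61, SE 0.29, limma adjusted p = 0.154). Without L-OHP replicate 2, the limma adjusted p was 0.0156 for Nfkbib and 0.0472 for Nfkbie. After the GC and length correction, log2 fold changes were 0.51 for Nfkbia, 0.29 for Nfkbib and 0.49 for Nfkbie (limma adjusted p = 0.0841, 0.215 and 0.233).

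Of the last pair of genes, Nfkbiz passed and Tnfaip3 did not, and the difference between them was not tested. Nfkbiz, which encodes IkB-zeta, a nuclear protein that works with p50 at the promoters of a subset of inflammatory genes (chromosome 16, 55811375 to 55838899, minus strand), rose. It was measured at 7.05, 8.37 and 5.05 FPKM with L-OHP and at 11.9, 11.1 and 11.98 FPKM with L-OHP+FUC. The groups of Nfkbiz did not overlap, with means of 6.82 ± 1.67 and 11.6 ± 0.502 FPKM (SD, n = 3; limma log2 fold change 0.71, SE 0.16, adjusted p = 0.0215). After the GC and length correction it was 0.78 (adjusted p = 0.0200). Its call was lost without L-OHP replicate 1 (adjusted p = 0.0584) or any 1 of L-OHP+FUC replicates 1 to 3 (0.0736, 0.0651 and 0.0544), and without a filter (0.0558). Tnfaip3, whose product A20 edits ubiquitin chains and dampens signalling upstream of the kinase complex (chromosome 10, 19000910 to 19015657, minus strand), stood at 7.28, 9.69 and 13.4 FPKM with L-OHP and at 16.4, 8.31 and 9.23 FPKM with L-OHP+FUC. The order of its libraries differed from that of the other genes, with L-OHP replicate 3 highest in its group and L-OHP+FUC replicate 1 highest of all 6 (log2 fold change 0.13, SE 0.29, limma adjusted p = 0.773). Without L-OHP+FUC replicate 1 the log2 fold change of Tnfaip3 was -0.15 (adjusted p = 0.685).

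**Figure D3:**
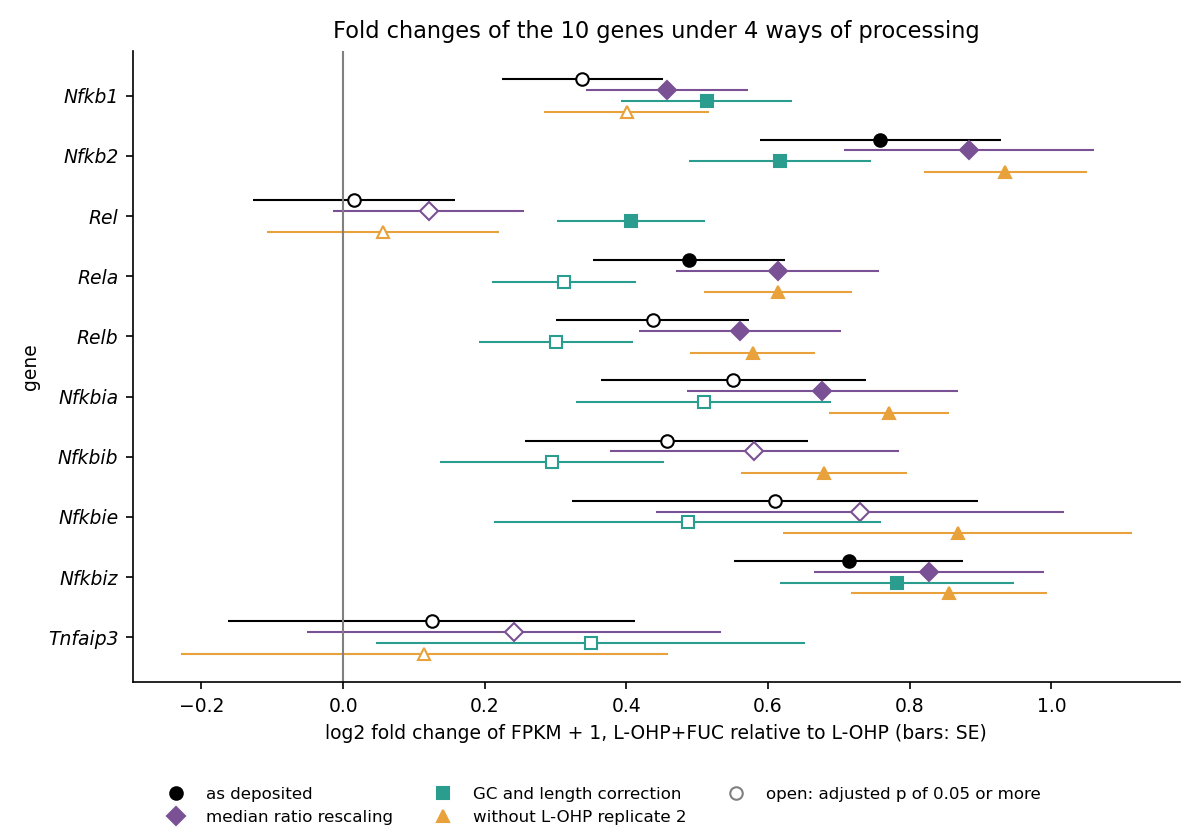
Log2 fold changes on the log2(FPKM + 1) scale (horizontal axis, L-OHP+FUC relative to L-OHP, bars SE) of the 10 genes, as deposited, after median ratio rescaling, after the GC and length correction and without L-OHP replicate 2, filled where the adjusted p was under 0.05. Nfkb2 and Nfkbiz are filled under all 4, and Tnfaip3 under none. Settings in which Nfkb2 and Nfkbiz lost their calls are not drawn. Among these are the fit without a filter on low genes (limma adjusted p = 0.0553 and 0.0558) and that without L-OHP replicate 1 (0.0685 and 0.0584).

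The promoters of members are shown because several of these genes are textbook targets of their own products, and because sites and fold changes can then be read side by side. RefSeq (GRCm38.p6, the assembly of mm10) gave windows from 250 bases before to 50 bases after a transcript start for 7 of the 10 genes, and Nfkb1, Relb and Nfkbiz were not among them. The kappa B consensus motif, a 10-base pattern searched on both strands with overlapping matches merged, was found in a promoter of 5 of these 7 genes, against 5.14% of the 27025 genes with such a window and 4.51% of the 32851 windows. Both windows below have the gene's orientation, 5′ to 3′, with matches in capitals. They belong to those 2 of the 3 genes that rose for which a window was given, Nfkb2 at its first RefSeq start (chr19:46304487-46304786, plus strand) with overlapping matches at -39 to -29 and another at -11 to -2 relative to the start, and Rela (chr19:5637291-5637590, plus strand) with no match in these letters.
Nfkb2: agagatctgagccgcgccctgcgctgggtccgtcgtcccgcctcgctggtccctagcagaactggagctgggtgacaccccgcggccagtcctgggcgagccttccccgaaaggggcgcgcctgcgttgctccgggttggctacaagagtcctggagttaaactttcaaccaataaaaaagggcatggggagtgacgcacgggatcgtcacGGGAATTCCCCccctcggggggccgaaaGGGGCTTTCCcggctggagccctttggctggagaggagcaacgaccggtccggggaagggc
Rela: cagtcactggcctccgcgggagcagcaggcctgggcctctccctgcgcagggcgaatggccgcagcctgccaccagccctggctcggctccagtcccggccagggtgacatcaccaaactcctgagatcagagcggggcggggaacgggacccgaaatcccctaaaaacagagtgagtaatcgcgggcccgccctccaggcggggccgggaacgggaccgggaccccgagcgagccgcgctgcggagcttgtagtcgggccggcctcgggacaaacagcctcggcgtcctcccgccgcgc

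The matches of the other genes are shown with up to 25 bases on each side, also in the gene's orientation and with matches in capitals. They belong to Nfkbia (chr12:55492642-55492701, minus strand), Nfkbie (chr17:45555569-45555628, plus strand), Rel (chr11:23771026-23771086, minus strand), the upstream start of Tnfaip3 (chr10:19015388-19015447, minus strand), where a further match lies at -125 to -116, and a downstream start of Nfkb2 (chr19:46305680-46305739, plus strand). A further match of Nfkb2 (chr19:46305459-46305468), at -236 to -227 relative to a downstream start, is not shown.
Nfkbia: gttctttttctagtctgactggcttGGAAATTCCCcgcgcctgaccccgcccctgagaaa
Nfkbie: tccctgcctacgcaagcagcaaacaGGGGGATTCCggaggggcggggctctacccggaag
Rel: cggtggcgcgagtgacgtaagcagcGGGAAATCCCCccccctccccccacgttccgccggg
Tnfaip3: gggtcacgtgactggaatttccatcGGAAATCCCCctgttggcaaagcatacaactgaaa
Nfkb2 downstream start: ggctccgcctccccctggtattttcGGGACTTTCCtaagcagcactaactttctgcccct
Matches thus lay before genes with higher means and non-overlapping groups (Nfkb2, Nfkbia) and before genes with overlapping groups (Nfkbie, Rel, Tnfaip3), while Rela rose and Nfkbib, with overlapping groups, had no match either. A match describes the letters in the window and not a bound site.

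In levels per length, the order of the genes was much the same in both groups. With L-OHP, Nfkbia was the most abundant at 54.9 ± 15.8 FPKM, followed by Rela, Nfkb2, Nfkbib, Relb, Nfkbie, Nfkb1, Tnfaip3, Nfkbiz and Rel, and the ranges of each pair of neighbours overlapped. With L-OHP+FUC, Nfkbia led at 78.9 ± 2.45 FPKM, Nfkb2 stood before Rela and Nfkbiz before Tnfaip3. There the ranges were apart between Rela (59.5 to 72.1 FPKM) and Nfkbib (33.0 to 39.3 FPKM), between Relb and Nfkbie, between Nfkb1 and Nfkbiz, and between Tnfaip3 and Rel.

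The balance of inhibitors and subunits was described as ratios of FPKM, with no test, since these are scores over genes chosen with results known. The summed level of the 5 subunits was 126, 159 and 113 FPKM with L-OHP and 200.1, 194 and 185 FPKM with L-OHP+FUC, and that of the 3 inhibitors 87.2, 130 and 73.2 FPKM and 147, 131 and 136 FPKM. Neither sum overlapped between the groups, and for the inhibitors L-OHP replicate 2 lay next to L-OHP+FUC replicate 2. The ratio of inhibitors to subunits had a mean of 0.719 (SD 0.0858) in the L-OHP libraries and of 0.715 (SD 0.0335) in the L-OHP+FUC libraries, and its ranges overlapped. Within the subunits, Nfkb2 held 29.7% to 33.4% of the summed level with L-OHP and 34.2% to 38.7% with L-OHP+FUC. The ratio of Nfkb2 to Nfkb1 was 2.76, 3.57 and 2.89 with L-OHP and 4.61, 3.91 and 3.73 with L-OHP+FUC, without overlap. Relb held 18.5% to 19.1% and 17.3% to 17.8%, also without overlap but in the other direction. None of these ratios and shares was corrected for GC content, which was 59.4% for Nfkb2 and 44.9% for Nfkb1. As deposited, the limma log2 fold changes of Nfkb2 and Nfkb1 were 0.76 and 0.34. After the GC and length correction they lay closer together, at 0.62 and 0.51.

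Some of these loci overlap other genes, and the use of strand in the authors' counting is not given in the sources used here. Nfkb2 shares 1292 bases with the antisense AC114539.1 and 299 with the antisense Psd, which had log2 fold changes of -0.04 and -0.13 (limma adjusted p = 0.809 and 0.429). Nfkbib shares 778 bases with the antisense Sirt2, a deacetylase gene at 17.8 to 22.3 FPKM with L-OHP and 20.2 to 24.6 FPKM with L-OHP+FUC (log2 fold change 0.15, adjusted p = 0.420), and 718 with Ccer2, listed at 0 in all libraries. Gm43430, inside Nfkb1 on the same strand, stayed at or under 0.0414 FPKM. Reads of such pairs may not be told apart.

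The genes around the pathway did not share one direction. Of 18 tested receptors that signal to NF-kB (20 listed) 1 rose, 3 fell and 14 did not pass, with a median log2 fold change of -0.16. Of 37 kinases and adaptors 1 rose, 4 fell and 32 did not pass (median -0.15), and of 24 other IkB-like and negative regulators 3 rose, 4 fell and 17 did not pass (median -0.12). Over all tested genes 7.67% were called higher and 19.3% lower, with a median of -0.10, so these 3 lists had medians near that of all genes.

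**Figure D4:**
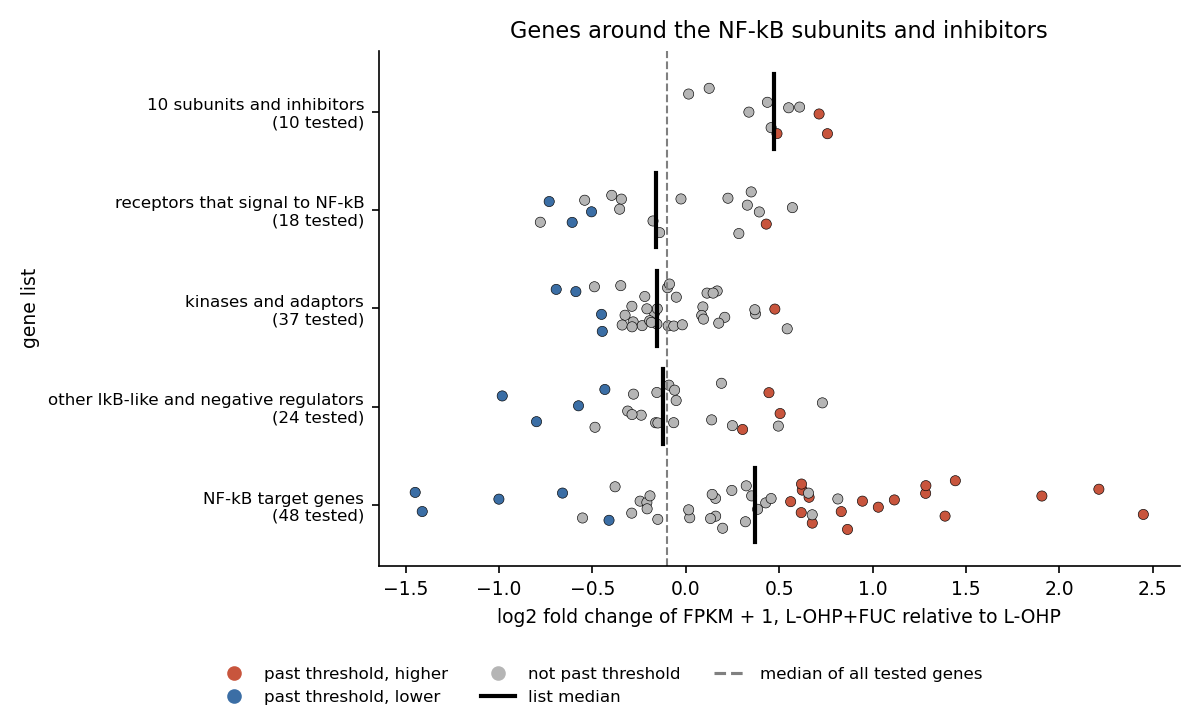
Log2 fold changes on the log2(FPKM + 1) scale (horizontal axis, L-OHP+FUC relative to L-OHP) of the 10 subunits and inhibitors and of the tested genes of 4 further lists, 1 point per gene, red or blue where the adjusted p was under 0.05. The medians (black) of receptors, kinases and negative regulators lie near the median of all tested genes (dashed, -0.10), and those of the 10 genes and of the target genes lie at 0.47 and 0.37.

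Among the receptors, Tnfrsf1a, the main TNF receptor, went from 65.7 ± 6.39 to 88.9 ± 7.61 FPKM (SD, n = 3; limma log2 fold change 0.43, adjusted p = 0.0314), a call lost without L-OHP replicate 1 (adjusted p = 0.0853), L-OHP replicate 3 (0.0730), L-OHP+FUC replicate 1 (0.106) or L-OHP+FUC replicate 2 (0.112), and without a filter (0.0605). The 3 receptors that fell were Clec7a (limma log2 fold change -0.61, adjusted p = 0.0185), Tnfrsf11a (-0.51, 0.0205) and Tlr3 (-0.73, 0.0214). Each of these calls held in 3 of the 6 fits without 1 library. After the GC and length correction 1 receptor was called lower, and 0 with the replicate block as well. In these 2 settings 1437 and 809 of all genes were called lower. Across the other settings with all libraries, the weakest log2 fold changes were -0.34 for Clec7a, -0.34 for Tnfrsf11a and -0.40 for Tlr3. Among the kinases and adaptors, Card9, which links C-type lectin receptors to the kinase complex, fell from 15.2 ± 1.44 to 9.74 ± 0.586 FPKM (SD, n = 3; limma log2 fold change -0.59, adjusted p = 0.0102). Its call held when each library was left out in turn and after the GC and length correction. The kinase subunits themselves did not pass, with log2 fold changes of -0.23 for Chuk, -0.22 for Ikbkb and -0.05 for Ikbkg (limma adjusted p = 0.156, 0.18 and 0.751). Map3k14, the kinase that triggers p100 processing, stood at 3.82 ± 0.516 and 2.93 ± 0.194 FPKM (limma log2 fold change -0.29, adjusted p = 0.0891).

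Among the other regulators, Otulin, which removes linear ubiquitin chains, rose from 23.8 ± 0.580 to 32.8 ± 0.973 FPKM (SD, n = 3; limma log2 fold change 0.45, adjusted p = 0.0104). Nlrc5, which is known both as a restraint on the kinase complex and as an activator of class I presentation genes, fell from 21.3 ± 3.53 to 10.2 ± 0.795 FPKM (log2 fold change -0.98, limma adjusted p = 0.00688). The calls of Otulin and Nlrc5 held when each library was left out in turn. Tnip1, a binding partner of A20, rose from 56.98 ± 6.78 to 81.0 ± 4.10 FPKM (limma adjusted p = 0.0187), a call lost without L-OHP replicate 1 (adjusted p = 0.0650), L-OHP+FUC replicate 1 (0.0701) or L-OHP+FUC replicate 2 (0.0597), and with the replicate number as a block (0.0505). Bcl3, a nuclear inhibitor-like protein that partners p50 and p52, stood at 11.9, 18.6 and 12.1 FPKM with L-OHP and at 21.1, 19.7 and 19.2 FPKM with L-OHP+FUC (log2 fold change 0.50, limma adjusted p = 0.0716), and Nfkbid, which encodes the related IkB-NS, at 5.69 ± 1.65 and 4.41 ± 0.293 FPKM (-0.28, adjusted p = 0.259).

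The target genes, a list of 55 written with earlier results of this series known, held 18 higher and 5 lower among 48 tested, with 25 not past. Over all tested genes 7.67% were called higher and 19.3% lower. The median log2 fold change of the targets was 0.37, against -0.10 over all tested genes. Of targets called higher there were 11 when L-OHP+FUC replicate 1 was left out, where 2.54% of tested genes were called higher. There were 12 when L-OHP+FUC replicate 2 (2.2%), L-OHP+FUC replicate 3 (5.21%) or L-OHP replicate 1 (3.09%) was left out. Without L-OHP replicate 2 there were 20 (9.28%), and without L-OHP replicate 3 there were 14 (5.09%). Those called lower numbered 1 when L-OHP+FUC replicate 1, L-OHP+FUC replicate 2 or L-OHP replicate 1 was left out. They numbered 3 when L-OHP+FUC replicate 3 or L-OHP replicate 2 was left out, and 7 when L-OHP replicate 3 was. In these fits, in the order given, 917, 835, 1029, 2092, 2256 and 1571 of all tested genes were called lower. Under the other settings run at the same threshold with all libraries there were 12 to 21 targets higher and 0 to 5 lower. In these settings 554 to 1581 genes were called higher and 809 to 2367 lower. The neutrophil-attracting chemokine gene Cxcl2 rose from 8.82 ± 1.94 to 52.1 ± 3.89 FPKM (limma log2 fold change 2.45, adjusted p = 0.00128). Cxcl1 and Cxcl3 were called higher too, from levels near or under the filter of 0.5 FPKM in 3 libraries. Cxcl1 was at 0.55 to 0.60 FPKM with L-OHP and 4.38 to 5.35 FPKM with L-OHP+FUC. Cxcl3 was at 0.13 to 0.47 and 3.75 to 6.20 FPKM, and met the filter only through the L-OHP+FUC libraries. The next smallest p among those that rose belonged to Zc3h12a, which encodes the RNase Regnase-1 that degrades mRNAs of cytokines and of Nfkbiz. It was measured at 9.79, 12.1 and 10.3 FPKM with L-OHP and at 24.2, 25.4 and 23.5 FPKM with L-OHP+FUC (limma log2 fold change 1.12, SE 0.10, adjusted p = 0.00339), well above the range without fucoidan. Nfkbiz and Zc3h12a thus both rose. Cd86, a costimulatory ligand for T cells, fell from 21.2 ± 4.31 to 10.02 ± 1.601 FPKM (log2 fold change -1.001, limma adjusted p = 0.0117). The calls of Zc3h12a and Cd86 held when each library was left out in turn. Other genes often listed as NF-kB targets did not pass, among them Icam1 (log2 fold change 0.43, limma adjusted p = 0.185), Irf1 (-0.19, 0.490) and the survival gene Cflar (0.02, 0.952).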

How the data were processed

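Total RNA depleted of ribosomal RNA was sequenced, per the labels' protocols. The submitters' processing notes name bcl2fastq 2.0, StringTie, HISAT2, limma, DESeq2 and the build mm10 without their roles. FPKM values of each library were deposited by the authors, and values of 0.0001, which stood for 0, were read as 0. They also deposited a ratio (fold) of mean FPKM, its log2, and a p-value and q-value per gene, whose test is not stated. Counts were not recovered, so no counting intervals are given.

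limma 3.58.1 (R 4.3.3) fitted log2(FPKM + 1) to the group alone, with trended moderation. Its two-sided p-values were adjusted by Benjamini-Hochberg over 12084 genes with at least 0.5 FPKM in 3 of 6 libraries, after a check on simulated data. The GC and length correction subtracted a loess trend (span 0.3) from each library, using GENCODE M21. Up to 4 genes a direction with the smallest p were eligible for naming in each further list, with single genes (Chuk, Ikbkb, Ikbkg, Map3k14, Bcl3, Nfkbid, Icam1, Irf1 and Cflar) added after their values were seen, and only part of those eligible are named. The 10 genes, the lists and the tests were chosen with earlier results of these data known. Alternatives were other pseudocounts, filters, scalings and thresholds, a replicate block, and leaving out each library.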

Additional observations from a re-analysis of the deposited data

How the results depend on the processing

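Of the 10 subunits and inhibitors, 3 passed as higher as deposited. This became 6 after median ratio rescaling, 5 after quantile normalization, 4 after the GC and length correction, 0 without a filter on low genes (6 at an unadjusted limma p under 0.05, against 7.3% of genes), 0 at a threshold of 0.01 and 6 at 0.1. Leaving out 1 library gave 0 to 7, and none was lower in any setting. Log2 fold changes without 1 library ranged from -0.12 to 0.11 for Rel and from -0.15 to 0.33 for Tnfaip3, and those of the other 8 genes were positive in all settings run. Genes called higher numbered 927 as deposited, 561 without a filter, 1581 after median ratio rescaling, 1565 after quantile normalization, 1390 after the GC and length correction, 165 at a threshold of 0.01, 1436 at 0.1 and 266 to 1121 without 1 library. Genes called lower numbered 2335, then 1520 without a filter, 966 at a mean of at least 5 FPKM, 1359 after quantile normalization, 1437 after the GC and length correction, 472 at a threshold of 0.01 and 835 to 2256 without 1 library. The median over all tested genes, -0.10 on the log2 scale as deposited, was 0.03 with quantile normalization and 0.01 once GC content and length were corrected for. The cause of these shifts was not tested.

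Same-numbered libraries did not deviate together (correlation of deviations from group means over genes -0.04, -0.07 and 0.08). With 3 libraries a group this cannot exclude that the numbers pair the samples, which the sources used here do not state. With the replicate block 554 genes were higher and 1762 lower, and 3 of the 10 genes were higher, the same 3. With the GC and length correction and the replicate block 656 were higher and 809 lower, and 0 of the 10 passed (7 at an unadjusted limma p under 0.05, against 17.8% of genes). Of the target genes, 13 were higher and 2 lower with the block, and 13 higher and 0 lower with the block and the correction, where Cd86 had an adjusted limma p of 0.0578.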

Other observations

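The deposited table labels genes with KEGG pathways, a grouping that owes nothing to the lists written here. Its NF-kappa B signalling label covered 90 gene symbols besides the members, of which 68 were tested. Of these 6 were called higher, 6 lower and 56 not, with a median log2 fold change of -0.04, against 7.67% higher, 19.3% lower and a median of -0.10 over all tested genes.

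Kappa B matches were counted over all tested genes with a RefSeq promoter window. Of 8473 such genes 520 (6.14%) had a match, and 50 of these (9.62%) were called higher and 92 (17.7%) lower. Among genes without a match 8.44% were called higher and 19.0% lower. Among the tested target genes with a window, 5 of 10 with a match and 9 of 26 without one were called higher. These counts describe windows of 300 bases and leave distal sites out.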
